A study of Mus musculus with 28 samples.

Results

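The genes described here write, erase or read the acetylation of lysine, or supply its acetyl group, and were followed in kidneys of mice that carry altered forms of the water channel aquaporin-3 (Aqp3). They are 33 of the 56748 genes in the count table and were taken by gene symbol. The set holds 4 class I, 4 class IIa and 2 class IIb histone deacetylases, the class IV enzyme Hdac11 and the 7 sirtuins. It also holds 10 lysine acetyltransferases, the corepressor Ncor1, the bromodomain proteins Brd2 and Brd3 and the acetyl-CoA producing enzymes Acly and Acss2. All 33 passed the filter on low counts, so every member was tested.

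Polyadenylated RNA of whole kidney was sequenced from untreated mice of both sexes. The Q form of Aqp3 imitates an acetylated lysine, the R form imitates the deacetylated lysine, and WT is the wild-type form. The 6 groups were male Q, male R and male WT with 5 libraries each, female Q with 5, female R with 3 and female WT with 5. The mice had free access to food and water, were killed between 2 and 5 h of zeitgeber time, and their kidneys were freed of the capsule and frozen. The labels name neither the strain, the age nor the lysine, and do not say whether libraries came from separate animals, so p-values measure the spread between these libraries, which may in part be technical.

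Acetyltransferases move the acetyl group of acetyl-CoA onto lysines of histones and other proteins, and deacetylases take it off. The Hdac enzymes of classes I, II and IV use zinc, whereas sirtuins consume NAD, and bromodomain proteins bind the acetylated lysine. In tubule cells the mitochondrial sirtuins are known for deacetylating metabolic enzymes. The class I enzymes Hdac1, Hdac2 and Hdac3 work in nuclear corepressor complexes, Hdac3 in that of Ncor1.

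Total counts ran from 14825417 to 21403804 per library. Aqp3 was read at 93.4 to 137 CPM (counts relative to the TMM-scaled library total) in the 28 libraries. Gene-level counts cannot show which codon a transcript carries, and the genotypes were therefore not checked. Summed markers of the proximal tubule reached 5339 to 9995 CPM, and those of the thick ascending limb, distal tubule and collecting duct were detected in every library. Male Q replicate 4 and female Q replicate 5 stood apart: mitochondrially encoded genes held 7.74% and 3.94% of their counts, against 9.56 to 12.1% in the other 26 libraries. In male Q replicate 4, 20 of the 33 members lay more than 0.3 (log2 CPM) from the mean of the rest of its group, and in female Q replicate 5, 16 did. The library labelled female WT replicate 2 had 0.515 CPM of Xist, while the remaining 12 female ones had 214 to 435 CPM. Its 4.17 CPM summed over 7 Y-linked genes lay below the 8.36 to 30.9 CPM of those 12 and far below the 142 to 180 CPM of male libraries. Its Xist level was thus not that of the other female libraries, nor its Y-linked level that of male ones, and the reason was not tested.

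On a scale that allows for length (TPM, from the union of all exons of a gene in an older annotation), mean levels of the members ran from 0.129 to 84.7 TPM. Acly, the cytosolic enzyme that splits citrate into acetyl-CoA, was the highest with 84.7 ± 17.6 TPM, followed by Acss2, the nuclear and cytosolic acetyl-CoA synthetase, with 63.3 ± 18.2 TPM (SD, n = 28 libraries). By raw counts Acss2 was above Acly, with 134754 against 92391 over the 28 libraries. Their order in TPM thus rests on union exon lengths of 10163 and 5279 bases. Of the deacetylases, Hdac1 led class I with 54.2 ± 6.5 TPM and Hdac8 was its lowest member with 5.01 ± 0.803 TPM. Class IIa held both Hdac5, at 24.4 ± 3.09 TPM, and the member with the lowest level of all, Hdac9, at 0.129 ± 0.0478 TPM and 388 counts over the 28 libraries. Sirt2, the mainly cytosolic sirtuin, was the highest of its family with 45.5 ± 5.64 TPM, and Sirt5, a mitochondrial enzyme that removes succinyl and malonyl groups, the lowest with 5.83 ± 0.934 TPM. Among acetyltransferases, Kat2b (PCAF) had 28.8 ± 5.6 TPM, whereas the paralogous coactivators Ep300 and Crebbp had 6.59 ± 1.53 and 3.79 ± 0.629 TPM and Kat6b had 2.57 ± 0.857 TPM. The level of Kat2b lay within 1 SD of those of Hdac3 and Hdac6, so the order of such neighbours is not resolved.

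**Figure D1:**
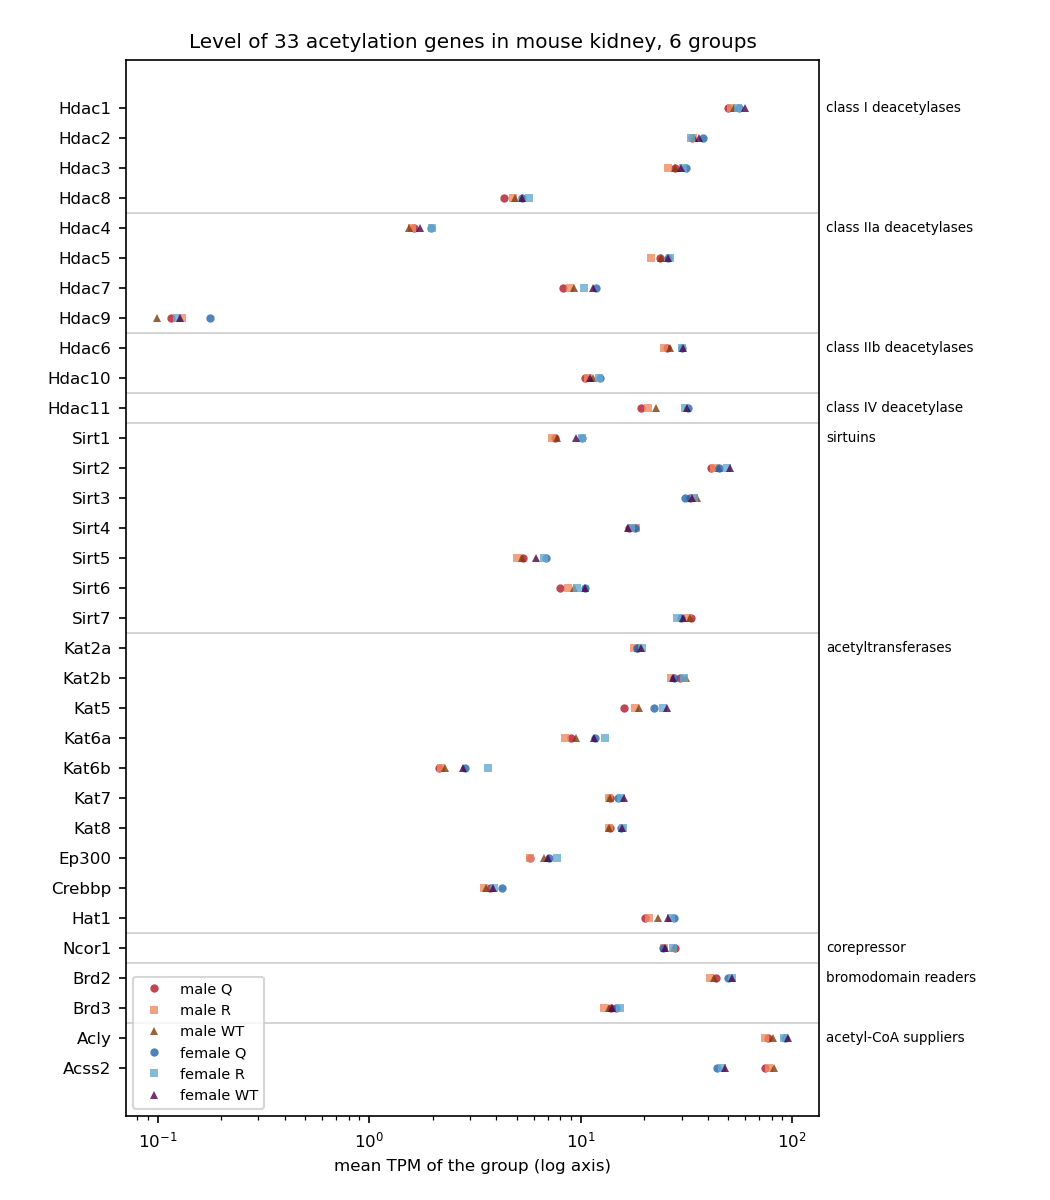
Mean TPM of the 33 members (rows, ordered by role) in the 6 groups, on a log axis. The 6 group means of most members lie close together. Acss2, from 63.3 TPM over all libraries, parts into higher male and lower female means, and Hdac9 lies far below the rest at 0.129 TPM.

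No member passed the test between Aqp3 genotypes. The quasi-likelihood test of edgeR, adjusted over 17573 tested genes by Benjamini-Hochberg, called 0 of 33 members at an adjusted p under 0.05 in each of 9 genotype comparisons, where the background of called genes was 0% in every one. Those were Q against WT, R against WT and Q against R in males, in females and over both sexes. The DESeq2 Wald test and voom with quality weights also called 0 members in each of them. An unadjusted p under 0.05 was reached by 1 member in male Q against WT (of 897 genes in all), by 1 in female Q against WT (of 516) and by 3 in Q against WT over both sexes (of 829). In the remaining 6 genotype comparisons 0 members reached it, with 235 to 721 genes doing so in each.

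The intervals show what size of change these libraries could have missed. Over both sexes and leaving aside Hdac9, whose counts are low, the log2 fold changes of Q against WT ran from -0.22 to 0.15, with 95% intervals that together spanned -0.40 to 0.37. Those of R against WT ran from -0.08 to 0.18, with intervals spanning -0.31 to 0.53. The median absolute log2 fold change of the 33 members was 0.0587 for Q against WT and 0.0373 for R against WT, beside 0.0899 and 0.0578 over all tested genes.

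The test of whether the effect of a genotype differed between the sexes called 0 of 33 members for Q against WT and 0 of 33 for R against WT by edgeR, again with a background of 0% in both. At an unadjusted p under 0.05 there were 0 members in either (547 genes for Q and 495 for R), and DESeq2 and voom called 0. The smallest p for Q belonged to Brd2, with a male minus female difference of the log2 fold changes of 0.17 (SE 0.111, edgeR adjusted p = 0.999), ahead of Hdac11 (-0.19) and Hat1 (-0.20). For R it belonged to Kat2b, at -0.35 (SE 0.236, edgeR adjusted p = 0.992), ahead of Ncor1 (-0.24) and Kat6a (-0.32).

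Sex was the difference that reached members. Over the 3 genotypes, 8 of 33 members were called between male and female kidneys by edgeR, 6 higher in males and 2 lower, or 24.2% of the members. The background was 40.2% of the tested genes, with 18.9% higher and 21.3% lower in males, so members were called no more often than kidney genes at large. Higher in males were Acss2, Sirt7, Ncor1, Sirt3, Sirt4 and Kat2b, and lower were Hdac11 and Kat5. The median absolute log2 fold change of members was 0.0985, beside 0.226 over all tested genes. Within Q, 5 members were called (background 23.1%), within R 3 (background 14.1%) and within WT 3 (background 16.5%). Acss2, Hdac11 and Sirt7 were called within each genotype, and Sirt3 and Ncor1 within Q in addition.

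The balance of directions depended on the scaling. Scaling by library totals in place of TMM, an alternative chosen after seeing the data, moved the median log2 fold change of all tested genes, male minus female, by -0.16, and then 12 members were called, 2 higher and 10 lower in males, with 1735 genes higher and 7063 lower in the background. The members added were Hdac6, Hdac7, Sirt1, Sirt5, Kat6a, Kat6b, Hat1 and Brd2, all lower in males. Acss2, Sirt7, Hdac11 and Kat5 kept their call and direction there, while Sirt3, Sirt4, Ncor1 and Kat2b stayed on the male side with smaller estimates of 0.08 to 0.11 and lost it. The estimates of 11 members that were not called changed sign there (Hdac1, Hdac2, Hdac3, Hdac5, Hdac10, Sirt2, Kat2a, Kat7, Kat8, Crebbp and Brd3), so their direction between the sexes is not settled. The sex differences given from here on are relative to the TMM centre, at which the median of all tested genes was -0.04. Without the 2 libraries that stood apart, 11 members were called (8 higher, 3 lower in males), and without those and the library labelled female WT replicate 2, 10 were (7 higher, 3 lower). All 8 members called with every library were among them in both cases. The first fit added Hdac2, Kat2a and Kat6a and the second Hdac2 and Sirt5, while the share of all tested genes called stood at 45.9% and 44.5%, beside 33.3% and 30.3% of the members.

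The makeup of the tissue RNA differed between the sexes as well. Summed over 4 markers, the proximal tubule had 8338, 9210 and 9995 CPM in male libraries (lowest, median and highest) and 5339, 7112 and 8018 CPM in female libraries, although 2 of the 4 markers were called higher and 1 lower in males. The 3 markers of the thick ascending limb, the 3 of the distal convoluted tubule, the 3 of intercalated cells and the 4 of podocytes were all called lower in males. Of the 3 markers of principal cells and the 3 of the inner medulla, 1 each was called lower (Scnn1g and Slc14a2). Aqp2 (-0.04 on the log2 scale), Aqp3 (-0.03), Akr1b3 (0.29) and Sptssb (-0.46) were not called. Summed markers of intercalated cells had a median of 182 CPM in male and 268 CPM in female libraries, without overlap. Markers of fat, urothelium, smooth muscle, leukocytes and adrenal cortex had medians of 49.4 CPM or less in both sexes, endothelial markers medians of 207 CPM in males and 231 CPM in females, and red blood cell markers 213 CPM in both. No marker was at 0 in all libraries. The part of tissue makeup in the sex differences below was not tested, and in whole kidney fewer cells of a type and less RNA per cell cannot be told apart.

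**Figure D2:**
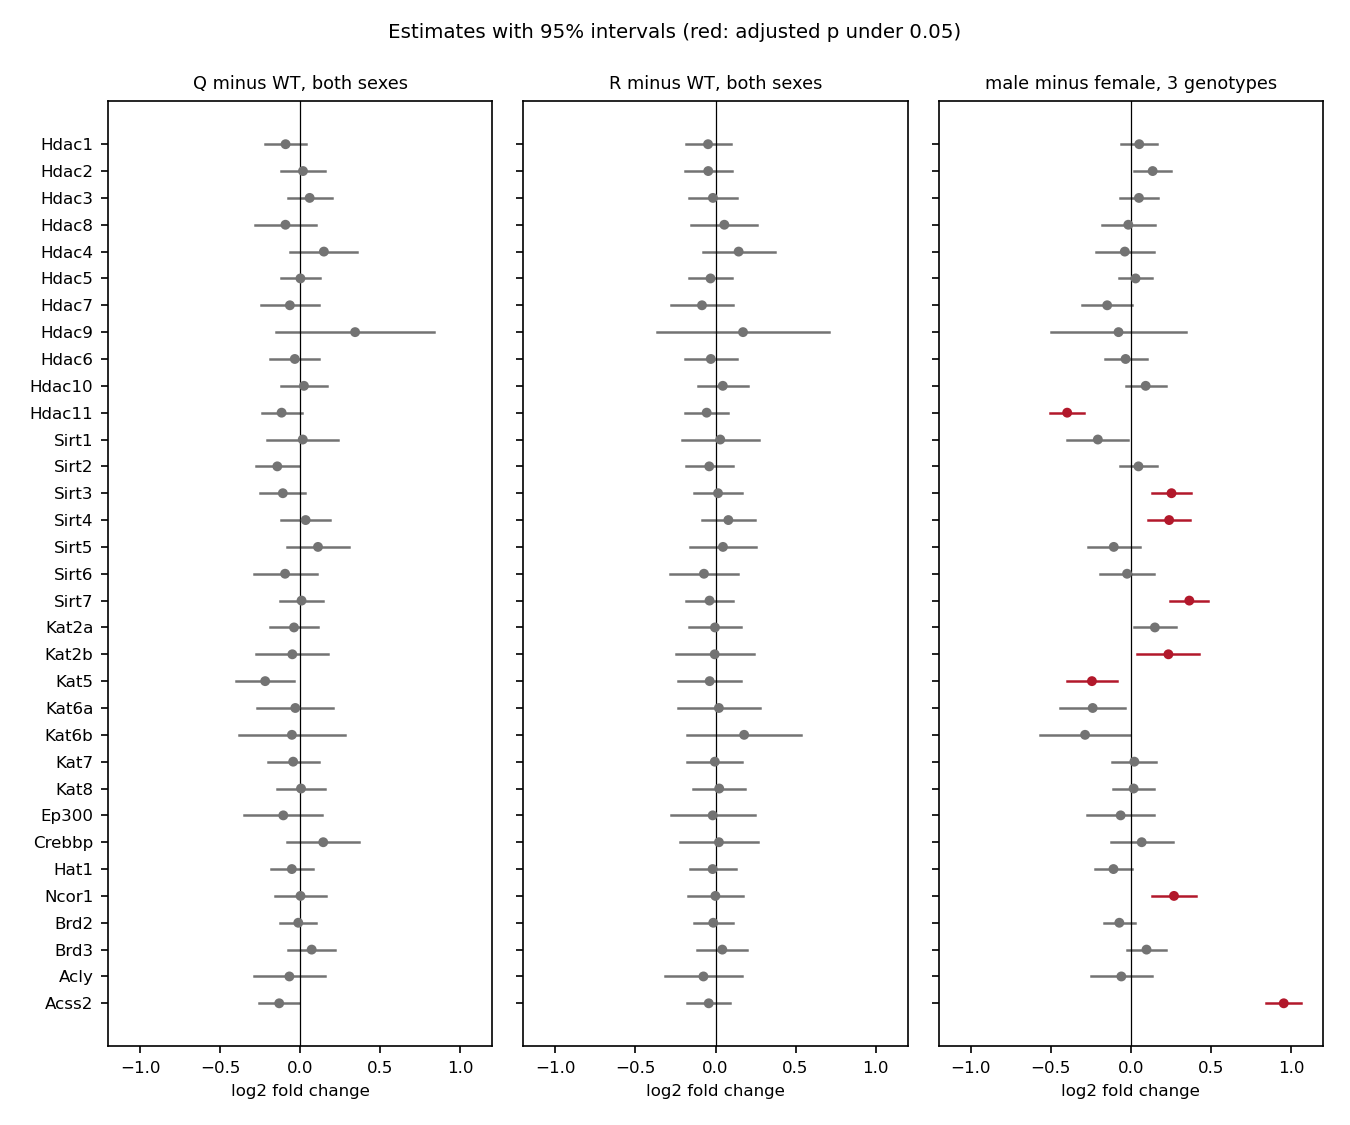
Log2 fold changes of the 33 members (rows) with 95% intervals (lines) for Q minus WT and R minus WT over both sexes and for male minus female over the 3 genotypes. Red points passed an adjusted p under 0.05. There are 0 red points in the genotype panels and 8 in the sex panel, of which Acss2 lies farthest out at 0.96.

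Class I deacetylases were called in 0 of the 15 comparisons by edgeR with TMM and all libraries. The background of called genes was 0% in the tests of genotype and 14.1 to 40.2% in the sex comparisons. Of the class I enzymes, Hdac1, Hdac2 and Hdac3 are catalytic subunits of nuclear corepressor complexes. Hdac2 was among the 3 members with the smallest p in female R against WT, with 52.7, 58.2 and 55.5 CPM in female R and 61.9, 52.8, 68, 57.2 and 63.1 CPM in female WT. These ranges overlap, and the log2 fold change was -0.13 (95% interval -0.35 to 0.09). Between the sexes Hdac2 had 56.7, 63.5 and 76.2 CPM in males and 51.9, 58.2 and 73.5 CPM in females (lowest, median and highest of 15 and 13 libraries), a log2 fold change of 0.14 that missed the threshold (edgeR adjusted p = 0.0569). Other fits called Hdac2 higher in males: the adjusted p was 0.0308 by the DESeq2 Wald test, 0.0377 by edgeR with DESeq2 size factors and 0.00324 by voom. It was 0.00622 by edgeR without the 2 libraries that stood apart (0.17 on the log2 scale) and 0.0116 without 3 libraries, while scaling by library totals gave -0.02 (edgeR adjusted p = 0.754). Hdac8, on the X chromosome, was among the 3 smallest p of Q against R, with 5.35, 9.53 and 10.6 CPM in Q and 8.71, 10.1 and 12.2 CPM in R (lowest, median and highest of 10 and 8 libraries). The lowest of its Q values was that of male Q replicate 4, and the log2 fold change was -0.15 (-0.35 to 0.06). Its male and female means were 9.59 and 9.61 CPM. Hdac1, and Hdac3, the partner of Ncor1, had sex differences of 0.05 and 0.05 on the log2 scale, and neither passed by edgeR, DESeq2 or voom with all libraries, and scaling by library totals turned both below 0, to -0.10 and -0.11.

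Class II enzymes shuttle between nucleus and cytoplasm (class IIa) or act largely in the cytoplasm (Hdac6, on tubulin, and Hdac10, on polyamines), and 0 of the 6 were called in the 15 comparisons by edgeR with TMM and all libraries. The background was again 0% in the tests of genotype and 14.1 to 40.2% in the sex comparisons. Hdac5 had 83.1, 89.8, 83.2, 91.6 and 101 CPM in male Q, 89.5, 82.9, 83.1, 74.3 and 78.2 in male R and 88.2, 93.2, 91.5, 75 and 88.9 in male WT. The 3 ranges overlap, and the log2 fold changes were -0.10 for R against WT (-0.27 to 0.07) and 0.14 for Q against R (-0.04 to 0.31). Hdac4 had 13.3, 11.5 and 10.3 CPM in female R and 11, 10.3, 10.7, 8.43 and 10.4 in female WT, where the difference was 0.20 (-0.14 to 0.54). Over both sexes R against WT gave 0.14 (-0.08 to 0.37) for Hdac4, with 11.1 CPM on average in R and 10.2 CPM in WT. In the older annotation 22.4% of the exon bases of Hdac4 are shared with another gene. Without an option for reads of several genes, such reads are as a rule left uncounted, and their number was not tested. Hdac9 had 0.973, 0.707, 0.713, 0.519 and 1.18 CPM in male R and 0.603, 0.708, 0.387, 0.523 and 0.823 in male WT, so its difference of 0.43 carries an interval of -0.27 to 1.13. Male R replicates 1 and 5 exceeded every male WT library, and the others lay within its range. Hdac7, Hdac6 and Hdac10 had sex differences of -0.15, -0.03 and 0.09 on the log2 scale, and none passed there. Hdac7 passed by voom (adjusted p = 0.0429), and Hdac6 and Hdac7 by edgeR under scaling by library totals.

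Hdac11, the only class IV enzyme and a remover of long fatty acyl groups as well as acetyl groups, was lower in male kidneys in every genotype. It had 32.6, 34.1, 32, 26.1 and 33.4 CPM in male Q, 33, 31.4, 40.9, 33.7 and 33.5 in male R and 35.4, 33.5, 38, 35.4 and 41 in male WT. Female values were 46.2, 45.7, 41.7, 47.6 and 43 CPM in Q, 44.8, 42.7 and 46.8 in R and 42.9, 51.4, 43.1, 44.3 and 45.8 in WT. All 15 male libraries lay below all 13 female ones, the highest male value being 41 and the lowest female 41.7 CPM. How many of all tested genes separate the sexes in this way was not counted, here or for the genes without overlap below. The log2 fold change, male minus female, was -0.40 (SE 0.0523, 95% interval -0.50 to -0.29, edgeR adjusted p = 3.04e-07). It was -0.50 within Q, -0.38 within R and -0.31 within WT, with adjusted p of 5.37e-05, 0.00841 and 0.0105 from the same edgeR fit. Leaving out the library labelled female WT replicate 2 took the call within WT (edgeR adjusted p = 0.0535), and leaving out female R replicate 3 took it within R (edgeR adjusted p = 0.0599). In the genotype comparisons Hdac11 had the smallest p of male Q against WT, with a log2 fold change of -0.21 (-0.39 to -0.03, edgeR adjusted p = 0.917). The lowest of those Q values, 26.1 CPM, was that of male Q replicate 4. Of the exon bases of Hdac11, 17.9% are shared with other genes in the older annotation. How many reads were left uncounted there was not tested.

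The stretch upstream of Hdac11 is shown because its male and female libraries did not overlap; it is the part of the RefSeq promoter window before any annotated exon, on the plus strand of GRCm38.p6 at chr6:91156565-91156664. It holds 60% G and C, and capitals mark a GC box (GGGCGG or its reverse complement), the letters bound by Sp1-type factors.
Hdac11: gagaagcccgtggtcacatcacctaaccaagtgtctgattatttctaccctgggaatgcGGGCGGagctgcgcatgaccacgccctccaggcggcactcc

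Of the 7 sirtuins 3 were called, all higher in males, namely Sirt7, Sirt3 and Sirt4. Over all tested genes 40.2% were called between the sexes, and 18.9% were called higher in males. Sirt7, the nucleolar sirtuin tied to ribosomal gene transcription, had 71.6, 68.9, 68.9, 93.3 and 72.8 CPM in male Q, 75.7, 64.7, 79.3, 68.3 and 70.5 in male R and 73.8, 63.1, 73, 73.6 and 71.1 in male WT. In females it had 49.3, 62.9, 46.9, 55.8 and 64 CPM in Q, 54.9, 52.8 and 56.9 in R and 52.1, 57.6, 60.4, 63.1 and 58.5 in WT. Within each genotype the lowest male value exceeded the highest female value, while over all genotypes the sexes overlapped between 63.1 and 64 CPM. On the log2 scale the sexes differed by 0.37 (SE 0.0577, edgeR adjusted p = 6.15e-06). Within WT the call, at an adjusted p of 0.0374 by edgeR, was lost when male WT replicate 1, 3, 4 or 5 or female WT replicate 1, 2 or 5 was left out, with an adjusted p of up to 0.0917. Within R, at 0.0159, it was lost without female R replicate 1 or 2, with an adjusted p of up to 0.0829 in edgeR. Scaling by library totals removed the call of Sirt7 within each genotype, at an edgeR adjusted p of 0.0523 in Q, 0.103 in R and 0.252 in WT, and those of Sirt3 and Ncor1 within Q, at 0.387 and 0.0872.

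Sirt3, the main deacetylase of the mitochondrial matrix, had 80.3, 84.5, 88.3, 72.9 and 94.9 CPM in male Q, 92.5, 84.7, 94.4, 82.6 and 87.8 in male R and 91.8, 74.4, 92.7, 97.6 and 87.4 in male WT. Its female values were 74.2, 68.6, 67.3, 78.7 and 50.1 CPM in Q, 70.9, 76.5 and 82.8 in R and 73.2, 76.6, 69.5, 80.7 and 73.7 in WT. Male values tended to be the higher ones, though the sexes overlapped between 72.9 and 82.8 CPM. The log2 fold change of Sirt3 was 0.25 (SE 0.0594, edgeR adjusted p = 9.08e-04), and its call within Q was lost without male Q replicate 5 or female Q replicate 5. Of its exon bases, 12.7% are shared with Psmd13 and Ric8a in the older annotation. Sirt3 was also among the 3 smallest p of Q against R, at -0.18 in females (-0.41 to 0.05) and -0.12 over both sexes (-0.28 to 0.03). The lowest female Q value, 50.1 CPM, was that of female Q replicate 5, and without the 2 libraries that stood apart these estimates were -0.09 and -0.06.

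Sirt4, another mitochondrial sirtuin, known for curbing glutamate dehydrogenase, had 18.5, 17.6, 16.6, 19.3 and 16.2 CPM in male Q, 19.3, 17.5, 19.6, 20.2 and 18 in male R and 16.5, 20.9, 15.8, 17.2 and 17.6 in male WT. Female kidneys had 14.1, 13.2, 15.1, 14.9 and 20.4 CPM in Q, 15.9, 13.4 and 16.9 in R and 15.6, 14.6, 13.4, 14.9 and 15.9 in WT. The 20.4 CPM of female Q replicate 5, a library that stood apart, was the highest female value and exceeded all male ones but that of male WT replicate 2. The male minus female difference was 0.24 on the log2 scale (SE 0.0648, edgeR adjusted p = 0.00355). In R against WT over both sexes it was 0.08 (-0.09 to 0.25), with means of 17.6 CPM in R and 16.2 CPM in WT.

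Sirt2 was among the 3 smallest p of Q against WT. It had 90.8, 87.9, 91, 87.2 and 55.8 CPM in female Q and 91.6, 98.4, 97.3, 94.2 and 92.8 in female WT, and 97.1, 88.5, 91, 82.5 and 89.5 CPM in male Q and 92.6, 99.6, 91.5, 94.9 and 97.3 in male WT. All 5 female Q values lay below the female WT ones, a separation whose share over all tested genes was not counted. The lowest by far was the 55.8 CPM of female Q replicate 5. The log2 fold change was -0.20 in females (-0.39 to -0.01) and -0.14 over both sexes (-0.28 to -0.01), and neither passed after adjustment. Without the 2 libraries that stood apart they were -0.08 and -0.07, and 0 members reached an unadjusted p under 0.05 in Q against WT over both sexes. Sirt1, Sirt5 and Sirt6 had sex differences of -0.21, -0.11 and -0.02 on the log2 scale, which did not pass by edgeR with TMM and all libraries. By voom Sirt1 and Sirt5 were called lower in males (adjusted p = 0.0246 and 0.0127), as they were by edgeR under scaling by totals, and Sirt5 was called by edgeR without 3 libraries (adjusted p = 0.047).

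Of the 10 acetyltransferases, Kat5 fell and Kat2b rose in males, where 40.2% of all tested genes were called between the sexes. Kat5 (Tip60), the catalytic subunit of the NuA4 complex, had 29, 21.7, 24.5, 17 and 28 CPM in male Q, 29.2, 25.5, 27, 26.3 and 28.9 in male R and 31.3, 27.9, 26.7, 28.4 and 24.2 in male WT. Among females it had 31.1, 27.9, 32.2, 31.9 and 18.4 CPM in Q, 30.2, 31.3 and 34.5 in R and 32.9, 32.5, 33.9, 32.9 and 34.3 in WT. The lowest value of either sex belonged to a library that stood apart, male Q replicate 4 with 17 CPM and female Q replicate 5 with 18.4 CPM. The sex difference was -0.24 (SE 0.0761, edgeR adjusted p = 0.0112), and without those 2 libraries it was -0.24 as well (edgeR adjusted p = 2.20e-04). Kat5 also had the smallest p of Q against WT over both sexes, at -0.22 (-0.40 to -0.04, edgeR adjusted p = 0.92). The same estimate was -0.20 in males (-0.46 to 0.05), -0.23 in females (-0.49 to 0.02) and -0.18 for Q against R (-0.38 to 0.01), comparisons that share their Q libraries. Without the 2 libraries that stood apart they were closer to 0, at -0.11 over both sexes, -0.10 in males, -0.11 in females and -0.07 for Q against R. Of the exon bases of Kat5, 12.1% are shared with Rnaseh2c in the older annotation.

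Kat2b, a coactivator that acetylates histone H3, had 58.7, 72.2, 73.1, 32.4 and 66.8 CPM in male Q, 60.9, 58.6, 39.5, 70.1 and 52 in male R and 77.8, 49.6, 63.6, 66.8 and 60.7 in male WT. Its values in females were 51.1, 42.4, 52.6, 52.9 and 43.2 CPM in Q, 54.6, 60.8 and 51.5 in R and 53.5, 49.2, 46.5, 49.2 and 48.8 in WT. Male libraries spread far more widely, with an SD of 12.6 CPM against 4.86 CPM in females, and both sexes overlapped. Males differed from females by 0.24 on the log2 scale (SE 0.0948, edgeR adjusted p = 0.0478). This call was lost in 18 of the 28 fits that left out 1 library each (adjusted p of up to 0.0831 in edgeR) and was kept without male WT replicate 2 or 5, male R replicate 3 or 5, male Q replicate 4, female WT replicate 1, female R replicate 2 or female Q replicate 1, 3 or 4. In male R against WT Kat2b gave -0.18 (-0.50 to 0.14).

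Kat6b, the acetyltransferase of histone H3 that pairs with Brpf scaffolds, had 19.4, 11.2, 18.1, 27.4 and 9.57 CPM in female Q, 22, 29 and 17.7 in female R and 17.3, 18.5, 13.7, 18.1 and 19.5 in female WT. Female R replicates 1 and 2 exceeded every female WT library, and female R replicate 3 lay among them, while the female Q range spanned most of both. The log2 fold change was 0.39 for R against WT (-0.14 to 0.92) and -0.41 for Q against R (-0.94 to 0.12), and over both sexes R against WT gave 0.18 (-0.18 to 0.53). Without the 2 libraries that stood apart the female difference of Q against R was -0.26. Hat1, which acetylates newly made histone H4, had 27.7, 24.3, 25.2, 22.9 and 25.4 CPM in male Q and 25.1, 24.4, 28.9, 32 and 29.1 in male WT. Those ranges overlap, and the difference was -0.15 (-0.34 to 0.04). In females it had 24.9, 30.8, 29, 27.4 and 32.2 CPM in Q and 28.5, 28, 26.7, 27.4 and 28.9 in WT, with the WT values inside the range of Q. Kat6a, a paralogue of Kat6b, had 26.1, 47.1, 26.7, 32.6 and 31.7 CPM in male R and 41.9, 33.7, 37.2, 29.3 and 38.7 in male WT, and 45.2, 48.2 and 40.4 CPM in female R and 42, 39.5, 37.6, 38.5 and 39.1 in female WT. Kat6a and Kat6b had sex differences of -0.24 and -0.29 with adjusted edgeR p of 0.0567 and 0.102, and Kat2a one of 0.15 with 0.061. By voom all of these passed (adjusted p = 0.00306, 0.0221 and 0.0405), Kat2a also did so by the DESeq2 Wald test (adjusted p = 0.0302), and Kat6a and Kat2a by edgeR without the 2 libraries that stood apart (adjusted p = 0.0455 and 0.0494). Kat7, Kat8, Ep300 and Crebbp lay between -0.06 and 0.07 on the log2 scale between the sexes and did not pass by edgeR, DESeq2 or voom with all libraries.

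Ncor1, the nuclear receptor corepressor that activates Hdac3, rose in males. It had 152, 158, 149, 162 and 158 CPM in male Q, 127, 165, 121, 139 and 125 in male R and 173, 139, 133, 135 and 156 in male WT. Female libraries held 139, 101, 120.0, 129 and 80.2 CPM in Q, 131, 138 and 121 in R and 127, 113, 119.7, 119.6 and 120.1 in WT. In Q and in WT all male values exceeded all female ones, whereas in R they overlapped. On the log2 scale the sexes differed by 0.27 (SE 0.067, edgeR adjusted p = 0.00166), and 0.45 within Q (edgeR adjusted p = 0.0026). Within R it was 0.06 and within WT 0.30, which did not pass (edgeR adjusted p = 0.823 and 0.0602). Q against R gave 0.20 in males (-0.02 to 0.42) and -0.20 in females (-0.45 to 0.06), the second of which was -0.09 without the 2 libraries that stood apart.

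The bromodomain proteins Brd2 and Brd3, which bind acetylated histone tails, were called in 0 of the 15 comparisons by edgeR with TMM and all libraries. Over all tested genes, 0% were called in the tests of genotype and 14.1 to 40.2% in the sex comparisons. Brd3 had 41.2, 40.5, 39.9, 61.3 and 43.4 CPM in male Q and 41.9, 42.2, 38.7, 39.2 and 40.7 in male R. The 61.3 CPM of male Q replicate 4 lay far above the rest, and the log2 fold change was 0.16 (-0.05 to 0.36), or 0.02 without the 2 libraries that stood apart. Brd2, the more abundant of the pair with 46.5 against 14 TPM, had 156, 148, 141, 131 and 157 CPM in male Q and 139, 146, 125, 145 and 141 in male WT, and 154, 135, 133, 149 and 137 CPM in female Q and 163, 158, 139, 145 and 153 in female WT. These ranges overlap within each sex.

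Acss2, which makes acetyl-CoA from acetate in nucleus and cytosol, showed the largest sex difference of the 33 members. It had 334, 352, 326, 266 and 342 CPM in male Q, 325, 369, 357, 313 and 327 in male R and 335, 336, 357, 383 and 332 in male WT. Female kidneys reached 183, 160.2, 158, 167 and 148 CPM in Q, 168, 183 and 180.1 in R and 158, 184, 197, 174 and 195 in WT. The lowest male library, male Q replicate 4, stood at 266 CPM and the highest female one at 197 CPM, so the sexes did not overlap. The mean was 337 ± 26.9 CPM in males and 173 ± 15.2 CPM in females (SD, n = 15 and 13), a fold of 1.94 or 0.96 on the log2 scale (SE 0.0536, 95% interval 0.85 to 1.06, edgeR adjusted p = 2.55e-15). It was nearly the same within each genotype, at 0.99 in Q, 0.94 in R and 0.94 in WT, and 0.80 when libraries were scaled by their totals. Between genotypes Acss2 had -0.16 for female Q against WT (-0.33 to 0.02) and -0.13 over both sexes (-0.26 to -0.01, edgeR adjusted p = 0.92), or -0.12 and -0.08 without the 2 libraries that stood apart. Of its exon bases, 9.12% are shared with an antisense transcript (Acss2os), Ggt7 and Gss in the older annotation. Without a strand option such reads are as a rule left uncounted, and their number was not tested.

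The stretch upstream of Acss2 is shown as the counterpart of that of Hdac11, the other member whose sexes did not overlap. It lies before any annotated exon on the plus strand of GRCm38.p6 at chr2:155517793-155517947, holds 62.6% G and C, and carries 3 GC boxes, in capitals.
Acss2: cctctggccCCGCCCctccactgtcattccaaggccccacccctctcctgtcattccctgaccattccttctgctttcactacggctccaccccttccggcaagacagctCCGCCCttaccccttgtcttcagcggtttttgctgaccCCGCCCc

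Promoter windows of RefSeq matched 29 of the 33 members by symbol, in 42 windows. In the 250 bases before the RefSeq start, searched on both strands, 25 of the 42 windows held a GC box, which 32.7% of all 32851 windows in the table hold. The hexamer AGAACA, part of the androgen receptor's element, was in 7 of the 42 and in 16.1% of all windows. Those 7, a share near that of all windows, were windows of Hdac9 (2 of them), Hdac11, Sirt4, Kat2a, Ncor1 (1 of its 2) and Brd3. Of the 250 bases, 150 for Hdac11 and 95 for Acss2 lie in annotated exons, and the hexamer of Hdac11 is in that part. The window of Acss2 did not have the hexamer, and a link between the hexamer and the sex differences was not tested. The whole androgen response element was in 0 of the 42, and in 0.00913% of all windows. The sterol element TCACNCCAC was in 1 of the 42 and in 1.05% of all windows. A match is a description of letters and not a binding site.

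**Figure D3:**
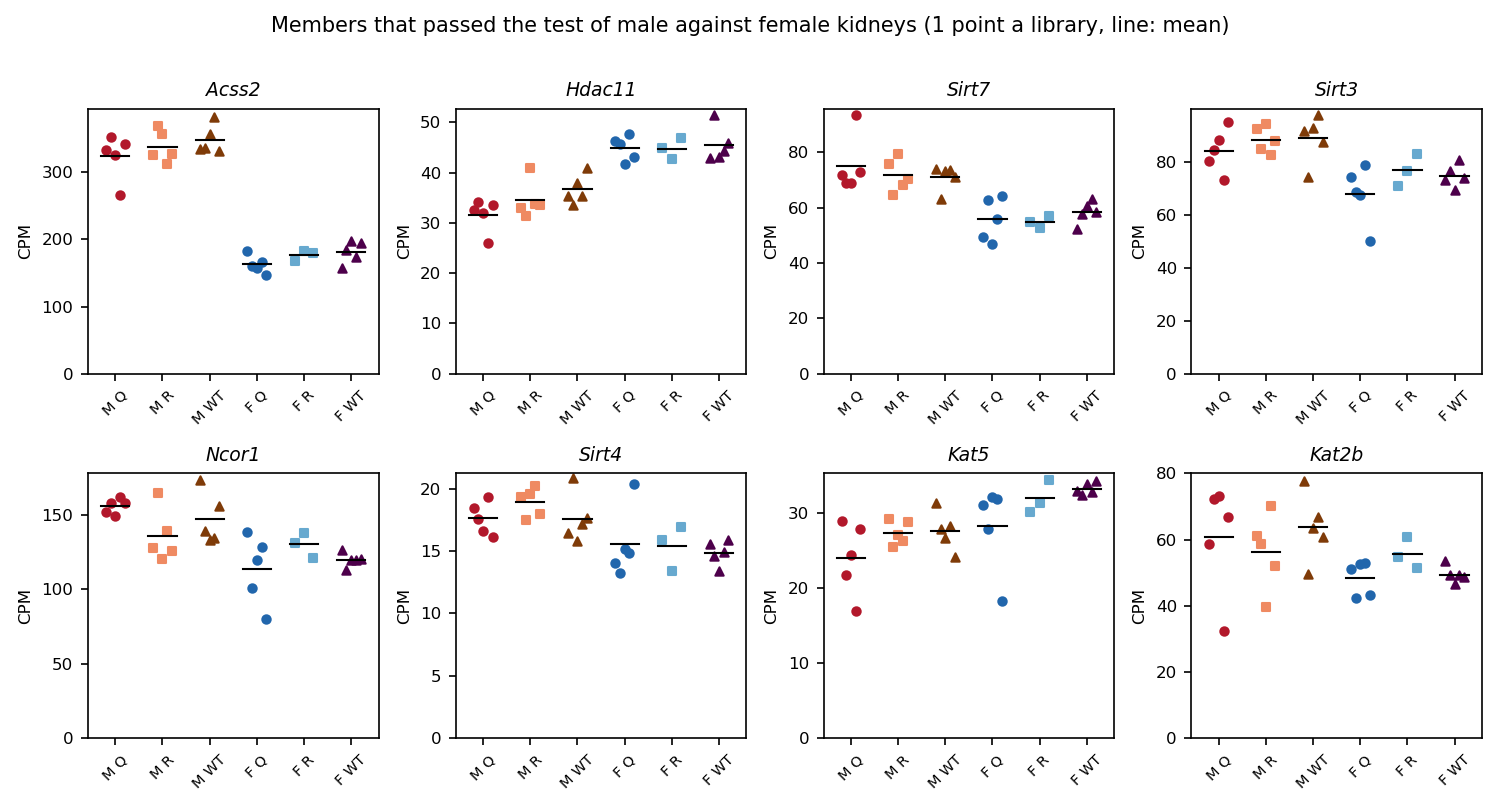
CPM in each library (points) and group means (lines) of the 8 members called between male (M) and female (F) kidneys, in groups Q, R and WT. Axes start at 0. The 15 male libraries lie above the 13 female ones for Acss2 (lowest male 266 CPM) and below them for Hdac11 (highest male 41 CPM), and the sexes overlap for the other members.

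Acly, the other acetyl-CoA producer, did not follow Acss2: it had 126, 176 and 212 CPM in males and 116, 181 and 237 CPM in females (lowest, median and highest). The male minus female difference was -0.06 on the log2 scale (-0.25 to 0.13), and the ranges overlap almost wholly.

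Around the members, 112 further genes of the pathway were taken in 5 lists, all of which were tested. Between genotypes 0 of the 112 were called by edgeR in each of the 9 comparisons (background 0%), with 1 to 6 of them at an unadjusted p under 0.05. Between the sexes 26 were higher and 12 lower in males, or 33.9% of the 112 beside 40.2% of all tested genes. The share of the acetyl-CoA list, 61.1%, lay above that background, and those of the other 4 lists, at 37.5% or less, below it. Scaling by library totals turned this to 13 higher and 38 lower. Without the 2 libraries that stood apart it was 32 and 13, and without 3 libraries 32 and 10.

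**Figure D4:**
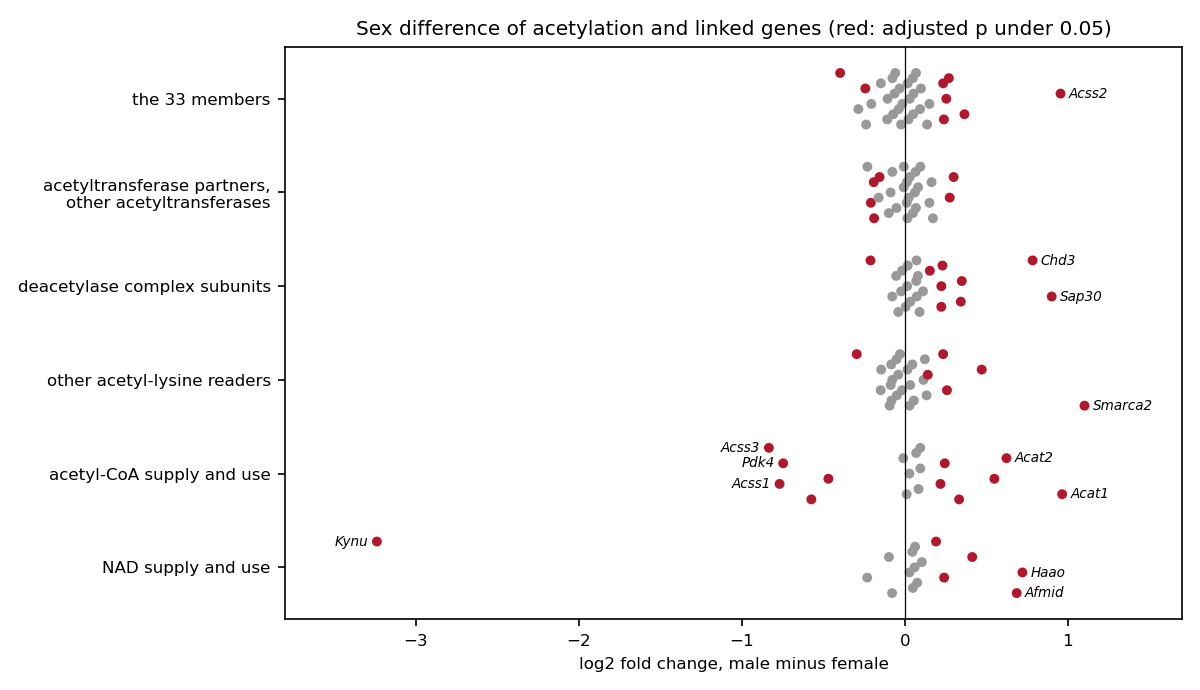
Log2 fold change, male minus female, of the 33 members and of 112 further genes in 5 lists (1 point a gene, red where the adjusted p was under 0.05). Most points lie near 0, while Smarca2 (1.10), Acat1 (0.96), Acss2 (0.96) and Sap30 (0.90) lie to the right and Kynu (-3.24) lies far to the left.

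Enzymes that make or use acetyl-CoA were called for 11 of 18 genes, beside a background of 40.2%, and 6 were higher and 5 lower in males, or 4 and 7 when libraries were scaled by totals. Acat1, the mitochondrial thiolase of ketone and isoleucine breakdown, had 1116, 1296 and 1486 CPM in males and 577, 653 and 732 CPM in females (lowest, median and highest), a log2 fold change of 0.96 (SE 0.0556). Acss1, the mitochondrial counterpart of Acss2, went the other way with 187, 254 and 293 CPM in males and 331, 441 and 457 CPM in females, or -0.77 (SE 0.0537). The sexes did not overlap for either gene. Acat2, a cytosolic thiolase, had 93.9, 111 and 160.0 CPM in males and 64.6, 72.7 and 92.1 CPM in females. Mlycd, which turns malonyl-CoA back into acetyl-CoA, had 81, 93.2 and 117 CPM in males and 57, 64.2 and 74.6 CPM in females. Both were without overlap, at 0.62 and 0.55 on the log2 scale. Acss3, a mitochondrial relative of Acss1 chosen after its values were seen, was lower in males as well, at -0.83 (SE 0.188, edgeR adjusted p = 7.50e-04), but with means of only 5.89 and 10.3 CPM. On the length scale, Acss1 averaged 144 ± 23.7 TPM in males and 279 ± 21.9 TPM in females, and Acss2 78.1 ± 11.1 TPM in males and 46.3 ± 3.91 TPM in females (SD, n = 15 and 13). Acss1 was thus above Acss2 in both sexes on that scale, whereas by CPM male kidneys held more of Acss2. TPM divides by the union of all annotated exons, 10163 bases for Acss2, so the order in males is not settled.

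**Figure D5:**
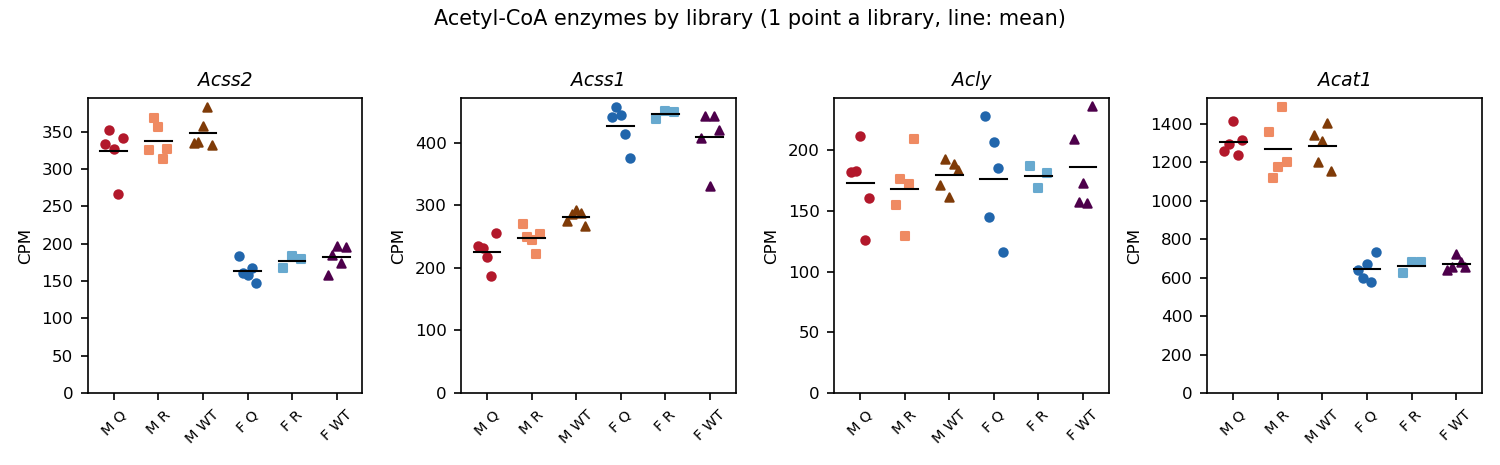
CPM in each library (points) and group means (lines) of the acetyl-CoA enzymes Acss2, Acss1, Acly and Acat1 in male (M) and female (F) kidneys of groups Q, R and WT, on axes that start at 0. Acss2 and Acat1 are higher in all male libraries, Acss1 is lower in all of them, and Acly overlaps between the sexes.

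Subunits of deacetylase complexes were called higher in males for 8 of 24 genes and lower for 1, Mta3, named after its value was seen. Together these were 37.5% of the list, beside 40.2% of all tested genes (18.9% higher and 21.3% lower in males). Chd3, a remodeller of the NuRD complex that carries Hdac1 and Hdac2, had 469, 569 and 636 CPM in males and 233, 336 and 404 CPM in females (lowest, median and highest), without overlap. Sap30, of the Sin3 complex, had 39.3, 55.5 and 89.3 CPM in males and 22.8, 29.1 and 51.2 CPM in females, with overlap. The log2 fold changes were 0.78 and 0.90 (SE 0.0657 and 0.113). Gatad2a, also of NuRD, and Suds3, of Sin3, followed at 0.34 and 0.22, the second of which lost its call when libraries were scaled by totals (0.06, edgeR adjusted p = 0.285). By that scaling 4 of the 24 were higher and 7 lower, or 45.8% beside 50.1% of all tested genes. Their catalytic partners among the members, Hdac1, Hdac2 and Hdac3, did not pass in that fit, though Hdac2 did in others, as given above.

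Other readers of acetyl-lysine were called higher in males for 5 of 26 genes and lower for 1, Brd9. Together these were 23.1% of the list, beside 40.2% of all tested genes. Smarca2, a bromodomain ATPase of the SWI/SNF remodeller, stood out with 185, 242 and 292 CPM in males and 106, 111 and 118 CPM in females, or 1.10 on the log2 scale (SE 0.0583, edgeR adjusted p = 6.17e-16) without overlap. Baz1a, of the ACF remodeller, was at 0.47 and Brd9, of the non-canonical SWI/SNF complex, at -0.30, both with overlapping sexes. Yeats2, a reader of the ATAC complex, was at 0.23 and lost its call when libraries were scaled by totals (0.08, edgeR adjusted p = 0.446). Under that scaling 2 of the 26 were higher and 10 lower, or 46.2% beside 50.1% of all tested genes.

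Partners of acetyltransferases and other acetyltransferases were called for 6 of 28 genes, 2 higher and 4 lower in males, or 0 and 12 under scaling by totals. Naa60, an acetyltransferase of protein N-termini, and Ncoa3, a nuclear receptor coactivator, were at 0.28 and 0.30, calls that scaling by totals removed (0.12 and 0.15, edgeR adjusted p = 0.201 and 0.175). Jade1, a scaffold of the Kat7 complex, and Epc1, a subunit of the Kat5 complex, were at -0.19 and -0.19.

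Among genes that make or consume NAD, the cosubstrate of sirtuins, 5 of 16 were higher and 1 lower in males, or 3 and 2 under scaling by totals. The shares were 37.5% beside 40.2% of all tested genes, and 31.2% beside 50.1% under scaling by totals. Kynu, kynureninase of the route from tryptophan to NAD, was the one lower gene, with 2.49, 6.03 and 13 CPM in males and 46.7, 55.6 and 65 CPM in females, a log2 fold change of -3.24 (SE 0.141) without overlap. Its neighbours on that route differed in the other direction: Haao, which acts after it, had 224, 268 and 494 CPM in males and 131, 161 and 201 CPM in females (0.72, no overlap), and Afmid, which acts before it, was at 0.69 with overlap. Nmrk1, a kinase of nicotinamide riboside, was at 0.41. Kynu also came nearest to a genotype call of the 112 genes, in male Q against WT, with 2.75, 3.73, 3.29, 2.49 and 4.88 CPM in male Q and 6.03, 7.08, 13, 8.37 and 12.1 CPM in male WT. All male Q values lay below the male WT ones, a separation whose share over all tested genes was not counted. The log2 fold change was -1.44 (SE 0.25), which did not pass (edgeR adjusted p = 0.0651).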

How the data were processed

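Counts per gene were made by the authors and deposited as 1 table of 28 libraries. Per the file headers, featureCounts 2.0.1 counted read pairs over exons by gene with Ensembl release 107 on GRCm39. It had no strand option and none for reads of several places or genes. Reads that overlap several genes are then not assigned by strand and are as a rule left uncounted. Trim Galore 0.6.7, SAMtools 1.6 and DESeq2 1.38.3 are named in the submitters' processing notes, and the aligner is not given in the sources used here.

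Genes were filtered with filterByExpr (17573 of 56748 kept, holding 99.91% of the counts), scaled by TMM and tested with edgeR 4.0.16 (R 4.3.3, robust quasi-likelihood test, 6 group means over 28 libraries, 22 residual degrees of freedom). P-values were adjusted by Benjamini-Hochberg over all tested genes, with calls at an adjusted p under 0.05. Effects over both sexes or over genotypes are equal-weight means of the group effects, and intervals are 95% intervals of the fit. Alternatives used DESeq2 1.42.0 and voom of limma 3.58.1, and the fit was tested on simulated data. TPM was computed with GENCODE union exon lengths of GRCm38, not the build of the counts, and carries no TMM scaling. Promoter sequences are from RefSeq (GRCm38.p6). Total counts of 14825417 to 21403804 per library set the precision, and genes with few counts, such as Hdac9, have wide intervals.

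The members and lists were chosen with earlier results of these data known. Per library or as lowest, median and highest, values are given for members called in any comparison and, where none was called, for the 3 with the smallest unadjusted p. Of each further list, the 4 genes with the smallest p between the sexes are named. Within groups, pairs of libraries differed by a chi-square of 6.31 to 154 per gene, so none was taken for a duplicate.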

Additional observations from a re-analysis of the deposited data

Results flagged for a closer look

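Of 165 sets of library values (33 members in the 5 groups with 5 libraries), 17 had a highest or lowest library that lay far from the other 4, where chance gives about 8.25 at 1 in 20. Of these, 9 were in male Q replicate 4 and 2 in female Q replicate 5, the libraries that stood apart. In male Q replicate 4, values were high for Hdac3 (63.5 CPM, others 44.1 to 48.6), Sirt7 (93.3, others 68.9 to 72.8), Crebbp (35.1, others 19.1 to 20.1) and Brd3 (61.3, others 39.9 to 43.4). They were low there for Hdac1 (54.6 CPM, others 72.8 to 80.1), Hdac6 (45.9, others 66.2 to 70.2), Hdac11 (26.1, others 32.0 to 34.1), Kat6a (19.8, others 36.3 to 40.3) and Kat6b (7.90, others 15.5 to 18.5). In female Q replicate 5, Sirt2 was low (55.8 CPM, others 87.2 to 91) and Sirt4 high (20.4, others 13.2 to 15.1). In male R replicate 3, Hdac3 (53.9 CPM, others 42.2 to 43.9) and Hdac11 (40.9, others 31.4 to 33.7) were high. Male WT replicate 4 was low for Hdac5 (75.0 CPM, others 88.2 to 93.2) and male WT replicate 2 for Sirt7 (63.1, others 71.1 to 73.8). Female WT replicate 4 was low for Hdac1 (66.8 CPM, others 76.3 to 79.9) and Hdac4 (8.43, others 10.3 to 11).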

How the results depend on the processing

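Between genotypes, and for the sex difference of the genotype effects, 0 members were called under every alternative run, each left-out library included. Between the sexes over all genotypes (8 members), voom called 15, and leaving out 1 library gave 7 to 11, while the genes called at large were 7071, against 8766 by voom and 6489 to 7638 with 1 library left out. Within Q (5 members), voom called 8, the fit without the 2 libraries that stood apart 8, the fit without 3 libraries 8, and leaving out 1 library gave 4 to 6, with 4060 genes called at large, against 5320, 4295, 4353 and 3446 to 4266. Within R (3 members), the counts were 1 with no filter on low counts, 9 by voom, 6 without the 2 libraries, 6 without 3 libraries and 2 to 4 with 1 library left out. Within WT (3 members), they were 5 by the DESeq2 Wald test, 1 with no filter, 7 by voom, 8 without the 2 libraries, 7 without 3 libraries, 7 in the fit of the compared groups alone and 1 to 4 with 1 library left out, the 1 being without female WT replicate 2. Over all genes, 2906 were called within WT, against 3302 by the DESeq2 Wald test, 2260 with no filter and 4668 by voom. Without the 2 libraries 4342 genes were called there, without 3 libraries 3607 and in the fit of the compared groups alone 4161. Leaving out 1 library gave 2356 to 2825. For R, 2474 genes were called, against 1933 with no filter, 5020 by voom, 4171 without the 2 libraries and 4192 without 3 libraries. There, leaving out 1 library gave 1608 to 2694. Within Q the fit of the compared groups alone called 2240. The causes were not tested. A tally took the members called in a comparison or, where none was, the 3 with the smallest p, and 4 genes of each further list. In it 1905 values kept direction and side of the threshold, 53 kept direction but lost the call and 0 reversed. These genes were chosen by their p in the main fit, and most fits left out 1 library, so agreement was favoured. Members not called between the sexes, such as Hdac2, were outside the tally of that comparison. Of the members not called between the sexes, 11 changed sign under library totals, 4 by voom, 1 by the DESeq2 Wald test, 2 without the 2 libraries and 3 without 3 libraries. Calls gained were 8 under library totals, 7 by voom, 2 by DESeq2, 3 without the 2 libraries and 2 without 3 libraries. The fits without 3 libraries and with library totals were chosen after seeing the data.

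Replicate numbers did not pair the libraries: same-numbered libraries had a median correlation of 0.00573 (-0.291 to 0.205) between their deviations from group means, and 5 of 28 correlated best with their own number. With the replicate number as a block, 7 members were called between the sexes (Kat2b was not, edgeR adjusted p = 0.0623), 5 within Q, 3 within R, 3 within WT and 0 between genotypes.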
